A study of Mus musculus with 40 samples.

Results

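Of the 15586 protein-coding genes tested in these data, 9 act in the breakdown of stored fat and its control by adrenaline and noradrenaline, and their H3K27ac is described here. They are the beta-adrenergic receptor genes Adrb1 and Adrb3, the cAMP and protein kinase A genes Prkar2b and Pde3b, the lipase genes Pnpla2, Lipe and Mgll, and Abhd5 and G0s2, whose products switch the lipase Pnpla2 up or down. The genes were chosen by name for these roles, with earlier results of these data known. All 9 had a peak in at least 3 libraries, which was the condition for a test, and they were tested together with all other such genes. H3K27ac is a histone acetylation found at active promoters and enhancers, and it was measured by ChIP-seq in 24 libraries, 3 for each of 2 genotypes at days 0, 3, 6 and 9 of adipocyte differentiation. The WT cells were C57BL/6 wild type and the DKO cells came from C57BL/6 mice that lack both Hmgn1 and Hmgn2, which encode proteins that bind nucleosomes. Both were preadipocytes grown out of inguinal white fat of mice aged 8 to 12 weeks, and each culture holds whatever cells of that tissue attached and grew. Day 0 libraries came from untreated preadipocytes. From the start of differentiation both genotypes received insulin, dexamethasone, IBMX, T3 and rosiglitazone for 4 days and then insulin and T3 alone. The study describes 3 biological replicates, without saying whether each is an animal or a culture. Nothing in the labels ties a replicate number to an animal, so the p-values measure the spread between these libraries, which need not be that between animals.

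In a fat cell, catecholamines bind beta-adrenergic receptors, adenylyl cyclase makes cAMP, and cAMP releases the catalytic subunits of protein kinase A from their regulatory subunits. The kinase then acts on the lipid droplet, where triglyceride is cut in steps by the lipases encoded by Pnpla2, Lipe and Mgll. Insulin works against this by way of the phosphodiesterase encoded by Pde3b, which degrades cAMP. IBMX in the medium inhibits phosphodiesterases and rosiglitazone activates PPARγ, the nuclear receptor that drives fat cell genes, so both agents touch this pathway in WT and DKO alike.

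The measure used throughout is the length, in kb, of a gene's window that lay under peaks in a library, the window being the gene with 10 kb upstream. It reflects how broad the acetylated stretches are and how many there are, not how many reads they hold. The lists held 47448 to 115923 peaks. The deleted gene Hmgn2 had a peak at its start in all 12 WT libraries and in 0 of the 12 DKO libraries, whereas Hmgn1 kept a start peak in all 24. WT day 3 replicate 3 was shallow, with 4.50 background reads per kb against 8.61 to 12.8 in the other libraries, and DKO day 0 replicate 2 had wide peaks, with a median width of 1076 bp. The genome under peaks differed between groups as well. The day 6 libraries had 57.5 Mb ± 2.60 in WT against 30.8 Mb ± 8.76 in DKO (SD, n = 3 each). DKO day 6 replicate 3 had the fewest peaks, 47448, and 20.7 Mb under peaks, against 35.4 and 36.3 Mb in replicates 1 and 2. Those of day 9 had 55.4 Mb ± 6.32 in WT against 64.5 Mb ± 3.90 in DKO (SD, n = 3 each). What part of a gene's genotype difference goes with these totals was not tested beyond the scaled values given beside the results.

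Peaks that touched were joined over the 24 lists into regions, of which 155 lay in the 9 windows. For 5 of the genes the region that gained the most libraries between day 0 and day 9 is shown by its sequence, since these stretches carry the acetylation that appeared with differentiation. Each is 200 bases of the plus strand of mm10 taken at the median day 9 summit and outside annotated UTRs, and the distances are those of the strongest summit of the region. The Mgll stretch lies at chr6:88746789-88746988 in the gene, 22.5 kb past its start. The Abhd5 stretch is chr9:122372952-122373151, 21.1 kb into the gene. That of G0s2 is chr1:193274163-193274362, upstream of the G0s2 start. The strongest summit of its region is at -0.856 kb from that start, minus being upstream. The region lies within 1 kb of a start of G0s2 and of a start of the neighbouring gene Lamb3. For Adrb3 the stretch is chr8:27239293-27239492, 11.2 kb inside the annotated gene. Prkar2b is represented by chr12:32045738-32045937, 15.5 kb past its start.
Mgll: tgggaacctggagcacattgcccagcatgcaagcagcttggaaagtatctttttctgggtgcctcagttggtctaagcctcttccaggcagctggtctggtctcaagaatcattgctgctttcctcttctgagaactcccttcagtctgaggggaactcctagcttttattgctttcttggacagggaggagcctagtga
Abhd5: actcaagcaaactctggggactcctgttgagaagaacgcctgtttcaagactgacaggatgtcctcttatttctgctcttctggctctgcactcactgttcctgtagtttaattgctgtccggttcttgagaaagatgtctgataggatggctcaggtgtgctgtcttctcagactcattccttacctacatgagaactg
G0s2: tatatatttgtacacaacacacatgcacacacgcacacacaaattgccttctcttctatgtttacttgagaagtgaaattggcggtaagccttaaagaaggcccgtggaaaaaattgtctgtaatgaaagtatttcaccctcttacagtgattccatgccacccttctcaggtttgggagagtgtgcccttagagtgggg
Adrb3: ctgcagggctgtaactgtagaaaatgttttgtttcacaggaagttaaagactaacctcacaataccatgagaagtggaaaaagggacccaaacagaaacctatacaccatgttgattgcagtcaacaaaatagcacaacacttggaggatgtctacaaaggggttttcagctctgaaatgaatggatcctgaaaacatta
Prkar2b: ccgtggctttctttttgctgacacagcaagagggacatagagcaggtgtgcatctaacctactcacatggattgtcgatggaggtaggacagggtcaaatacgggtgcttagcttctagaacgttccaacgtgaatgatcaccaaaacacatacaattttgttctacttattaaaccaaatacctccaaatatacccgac
Each of these regions was called in 0 or 1 of 6 libraries at day 0 and in 6 of 6 at day 9, the rise in calls being what they were chosen by. In the genes not shown, the region chosen in the same way went from 6 to 6 calls for Pnpla2 and for Lipe. It went from 5 to 4 for Adrb1 and from 0 to 5 for Pde3b.

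Between day 0 and day 9 the cover of 8 of the 9 genes rose and that of Adrb1 fell. The median gene of the 9 had 4.25 times its day 0 cover at day 9 in WT and 3.61 times in DKO, while the median over all tested genes was 1.09 and 0.968 times. All 9 passed the test of day 9 against day 0 (exact permutation test over 400 relabellings of day within genotype, two-sided, smallest possible p 0.005, Benjamini-Hochberg over 15586 genes). Over all tested genes, 16.8% passed as higher at day 9 and 15.3% as lower. Genotype gave another picture. Averaged over the 4 days no gene of the 9 differed between DKO and WT past the threshold, against a background of 0.109% lower and 0.0192% higher in DKO, and the daily differences changed sign along the course. At day 9 all 3 DKO libraries lay above all 3 WT libraries for 8 of the 9 genes, against 30.3% of all tested genes above and 2.08% below.

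**Figure D1:**
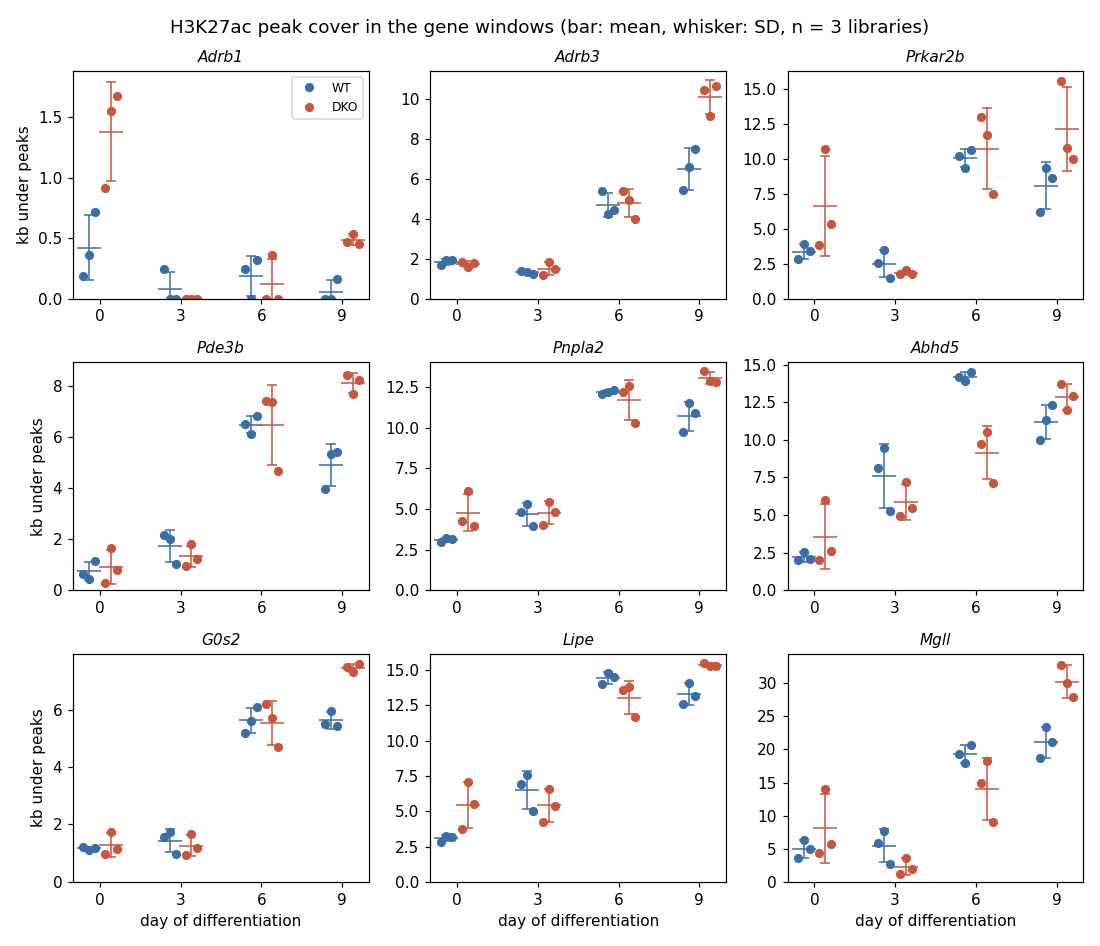
Each panel plots the kb under H3K27ac peaks in the window of a gene (y axis, from 0) against the day of differentiation (x axis) for the 3 WT (blue) and 3 DKO (red) libraries of each day, with the mean as a bar and the SD as whiskers. In all 9 panels the mean of day 6 lies above that of day 3, and at day 9 the DKO points stand above the WT points except for Abhd5, where they overlap.

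The beta-adrenergic receptors moved in opposite directions. Adrb3 (mm10 chromosome 8, 27225776 to 27250616, minus strand) encodes the receptor through which rodent fat cells chiefly sense noradrenaline. Its window was covered for 1.67, 1.93 and 1.92 kb in the WT and 1.85, 1.59 and 1.78 kb in the DKO libraries of day 0. At day 3 the values were 1.39, 1.33 and 1.25 kb in WT and 1.19, 1.82 and 1.51 kb in DKO. Most of this early cover was a region at the start of Eif4ebp1, 10 kb upstream, called in 24 of 24 libraries. Counting only peaks whose nearest transcript start is that of Adrb3, mean day 0 cover was 0.487 kb in WT against 0.244 kb in DKO. At day 3 it was 0 kb in every WT library and 0.136 kb ± 0.236 (SD, n = 3) in DKO.

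By day 6 the Adrb3 window held 5.41, 4.25 and 4.47 kb in WT and 5.42, 4.95 and 4.01 kb in DKO. The genotypes overlapped there, with 4.71 kb ± 0.618 against 4.79 kb ± 0.716 (SD, n = 3 each). At day 9 it held 5.43, 6.60 and 7.52 kb in WT and 10.5, 9.17 and 10.7 kb in DKO. The DKO libraries then lay above every WT library, by 3.59 kb in the mean (exact permutation test, p = 0.1, the smallest that 3 against 3 libraries allow). With only the peaks nearest to Adrb3 the day 9 means were 4.89 kb ± 0.977 in WT and 7.78 kb ± 0.705 in DKO (SD, n = 3 each). The rise from day 0 to day 9 was 6.52 kb (exact permutation test, adjusted p = 0.0197). Adrb3 was the 1 member past the threshold between day 6 and day 9, higher by 3.56 kb (exact permutation test, p = 0.005, adjusted p = 0.04999), against 9.97% of genes higher and 0.0321% lower. That call was lost when kb was scaled to the covered length of the library, where the step was 0.788 kb (exact permutation test, adjusted p = 0.331).

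Adrb1 (chromosome 19, 56722199 to 56733113, plus strand) encodes the other receptor. It was the least covered of the 9 genes, with a peak in 14 of 24 libraries. At day 0 the WT libraries held 0.183, 0.364 and 0.713 kb and the DKO libraries 0.915, 1.55 and 1.68 kb. All DKO libraries were above all WT libraries, DKO day 0 replicate 2 or not. At day 3 a peak of 0.241 kb in WT replicate 1 was the only cover in 6 libraries. Day 6 gave 0.248, 0 and 0.317 kb in WT and 0, 0.363 and 0 kb in DKO. At day 9 the WT libraries held 0, 0 and 0.165 kb and the DKO libraries 0.470, 0.538 and 0.450 kb, again without overlap. The region at the gene start (56721335 to 56721938) was called in 12 of 24 libraries, and the reads at its summit numbered 12 to 30, so these are calls near the detection limit. The cover fell from 0.901 to 0.271 kb between day 0 and day 9 (exact permutation test, adjusted p = 0.0197). With 25 kb upstream in the window the sign turned, to 0.317 kb higher at day 9.

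Downstream of the receptors are the cAMP genes Prkar2b and Pde3b. Over both genotypes together, their mean cover at day 6 was about that of day 9, but the genotypes moved apart. From day 6 to day 9 the Pde3b mean went from 6.48 to 4.90 kb in WT and from 6.47 to 8.10 kb in DKO. The Prkar2b mean fell to 8.08 kb in WT and rose from 10.7 to 12.1 kb in DKO, with overlap between the days in each. These steps were not tested within a genotype. Prkar2b (chromosome 12, 31958476 to 32061296, minus strand) encodes the regulatory subunit of protein kinase A that predominates in fat. At day 0 it held 2.80, 3.92 and 3.37 kb in WT and 3.87, 10.7 and 5.33 kb in DKO, the highest being the wide-peaked replicate 2. At day 3 the values were 2.58, 3.46 and 1.48 kb in WT and 1.75, 2.01 and 1.78 kb in DKO. Cover thus fell from 5.00 to 2.18 kb between day 0 and day 3 (exact permutation test, adjusted p = 0.0481), as it did past the threshold for 29.6% of all tested genes. The call missed the threshold without DKO day 0 replicate 2 (exact permutation test, adjusted p = 0.0512) or without WT day 3 replicate 3 (adjusted p = 0.0807). Day 6 gave 10.2, 9.36 and 10.6 kb in WT and 13.0, 11.7 and 7.45 kb in DKO. The genotypes overlapped only through DKO replicate 3, the library with the fewest peaks. Day 9 gave 6.20, 9.38 and 8.65 kb in WT and 15.6, 10.8 and 10 kb in DKO. All DKO libraries were above WT, by 4.07 kb in the mean. From day 0 to day 9 cover rose by 5.11 kb (exact permutation test, adjusted p = 0.0341). Prkar2b also held the single region of the 9 windows that was lost, at 31995987 to 31998142 in the gene, called in 6 of 6 libraries at day 0 and in 1 of 6 at day 9, with Hbp1 as the gene of nearest start. It was 0.645% of the regions in the windows, against 3.11% lost of all regions.

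Pde3b (chromosome 7, 114415281 to 114539251, plus strand), whose enzyme lets insulin lower cAMP, started almost bare. At day 0 it held 0.638, 0.450 and 1.13 kb in WT and 0.298, 1.64 and 0.794 kb in DKO. At day 3 it held 2.17, 2.0 and 1.03 kb in WT and 0.958, 1.79 and 1.22 kb in DKO. At day 6 the values were 6.50, 6.12 and 6.82 kb in WT and 7.40, 7.35 and 4.67 kb in DKO. Up to this point the genotypes overlapped at each day, at day 6 only through DKO replicate 3, the library with the fewest peaks. At day 9 WT libraries held 3.95, 5.33 and 5.42 kb and DKO libraries 8.42, 7.66 and 8.22 kb. The DKO libraries were higher by 3.20 kb in the mean, with no overlap. Its 7.88-fold rise from day 0 to day 9, from 0.825 to 6.50 kb, was the largest fold among the 9 genes (exact permutation test, adjusted p = 0.0197). Its strongest peak stood at the percentile 53.4 of its library by q at day 0 and at 96.3 at day 9, where 100 is the strongest peak of the library (exact permutation test, adjusted p = 0.0278).

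The lipase that opens triglyceride breakdown is encoded by Pnpla2 (chromosome 7, 141455198 to 141460743, plus strand). Its window held 2.98, 3.23 and 3.14 kb in WT and 4.28, 6.10 and 3.95 kb in DKO at day 0. At day 3 the range over the 6 libraries was 3.93 to 5.45 kb. Day 6 gave 12.1, 12.2 and 12.3 kb in WT and 12.2, 12.6 and 10.3 kb in DKO, about the same in both. At day 9 WT libraries held 9.73, 11.5 and 10.9 kb and DKO libraries 13.5, 12.9 and 12.8 kb. DKO was above WT without overlap at days 0 and 9, by 1.66 and 2.33 kb in the mean. The day 0 to day 9 rise was 7.94 kb (exact permutation test, adjusted p = 0.0197). The strongest region of this window lies at the start of Rplp2, a ribosomal protein gene, and a further region touches the start of Cracr2b. With only the peaks nearest to a Pnpla2 start, cover at day 9 was 5.07 kb ± 0.560 in WT and 3.73 kb ± 0.355 in DKO (SD, n = 3 each), so the day 9 difference changed sign. In this count a peak goes whole to the gene nearest its summit. The window held a mean of 15.0 peaks in WT and 5.33 in DKO at day 9, so peaks were joined differently in the genotypes. What part this has in the change of sign was not tested.

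Abhd5 (chromosome 9, 122351608 to 122381524, plus strand), whose product activates the Pnpla2 lipase, was the 1 gene of the 9 that had risen past the threshold by day 3. The libraries of day 0 held 2.0, 2.56 and 2.06 kb in WT and 2.03, 6.02 and 2.63 kb in DKO. At day 3 they held 8.13, 9.46 and 5.27 kb in WT and 4.96, 7.23 and 5.47 kb in DKO. The step between these days was 3.87 kb (exact permutation test, adjusted p = 0.0481), and it missed the threshold without WT day 3 replicate 3 (adjusted p = 0.0581). Of all tested genes 1.58% rose and 29.6% fell between day 0 and day 3. Day 6 gave 14.2, 13.9 and 14.5 kb in WT and 9.76, 10.5 and 7.16 kb in DKO, all DKO libraries below WT, by 5.08 kb in the mean. Day 9 gave 10, 11.3 and 12.3 kb in WT and 13.7, 12 and 12.9 kb in DKO, which overlapped. Its DKO to WT ratio followed that of the median gene at day 6 (0.643 against 0.654) and at day 9 (1.15 and 1.15). The rise from day 0 to day 9 was 9.15 kb (exact permutation test, adjusted p = 0.0197).

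G0s2 (chromosome 1, 193272161 to 193273217, minus strand) encodes the protein that inhibits the Pnpla2 lipase. Day 0 gave 1.22, 1.11 and 1.17 kb in WT and 0.966, 1.75 and 1.14 kb in DKO. Day 3 gave 1.58, 1.74 and 0.972 kb in WT and 0.944, 1.66 and 1.2 kb in DKO. Neither day separated the genotypes. At day 6 the window held 5.20, 5.60 and 6.08 kb in WT and 6.20, 5.70 and 4.71 kb in DKO. At day 9 it held 5.49, 5.96 and 5.43 kb in WT and 7.48, 7.30 and 7.58 kb in DKO, the latter all above WT, by 1.83 kb in the mean. The rise from day 0 to day 9 was 5.31 kb (exact permutation test, adjusted p = 0.0197). G0s2 is short, and all 4 regions it gained have the start of Lamb3 as their nearest. With only the peaks nearest to the G0s2 start the difference between day 9 and day 0 was 0.00700 kb (exact permutation test, adjusted p = 1). The peak at the G0s2 start itself, which lies within 1 kb of a Lamb3 start too, went from a fold of 8.40 to 23.4 over the same days.

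Lipe (chromosome 7, 25379527 to 25398710, minus strand) encodes hormone-sensitive lipase, a target of protein kinase A. At day 0 it held 2.84, 3.26 and 3.15 kb in WT and 3.74, 7.04 and 5.55 kb in DKO, with DKO all higher. At day 3 it held 6.90, 7.58 and 5.01 kb in WT and 4.27, 6.61 and 5.36 kb in DKO, with overlap. The order was the reverse at day 6, with 14.0, 14.8 and 14.5 kb in WT and 13.6, 13.8 and 11.7 kb in DKO, all DKO libraries lower. At day 9 WT libraries held 12.6, 14.1 and 13.2 kb and DKO libraries 15.5, 15.3 and 15.3 kb, all higher. The DKO minus WT differences were thus 2.36, -1.08, -1.43 and 2.05 kb over the 4 days. This change with the day passed the test of the sum of squares of the daily differences about their mean, genotype permuted within each day (exact permutation test, p = 0.00272, adjusted p = 0.0322), as it did for 19.6% of all genes. From day 0 to day 9 cover rose by 10.1 kb (exact permutation test, adjusted p = 0.0197).

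Mgll (chromosome 6, 88724412 to 88828360, plus strand) encodes the lipase of the last step, which frees glycerol. It gained the most cover in kb. The day 0 libraries held 3.64, 6.30 and 4.94 kb in WT and 4.40, 14.0 and 5.79 kb in DKO, the 14.0 kb being that of the wide-peaked library. Day 3 gave 5.93, 7.75 and 2.74 kb in WT and 1.2, 3.67 and 2.0 kb in DKO. Day 6 gave 19.3, 18.0 and 20.7 kb in WT and 14.9, 18.3 and 8.97 kb in DKO. The genotypes overlapped at these days. At day 9 the DKO libraries, with 32.8, 30.0 and 27.9 kb, were all above WT, with 18.7, 23.4 and 21.1 kb. The DKO minus WT differences were 3.11 kb at day 0, or 0.138 kb without the wide-peaked library, and -3.19, -5.32 and 9.18 kb on the later days, and their change with the day passed the test (exact permutation test, p = 0.00225, adjusted p = 0.0308). From day 0 to day 9 the cover rose by 19.2 kb (exact permutation test, adjusted p = 0.0197). On kb scaled to the covered length of the library neither Lipe (adjusted p = 0.224) nor Mgll (adjusted p = 0.142) passed this exact permutation test, and 13 of all genes did.

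From day 3 to day 6 no step of the 9 genes passed the threshold, although the means were higher. The median of the 9 genes was 3.54 times higher at day 6 than at day 3 in WT and 3.79 times in DKO, against 1.22 and 0.937 for all genes. For Adrb3, Prkar2b, Pde3b, Pnpla2, G0s2, Lipe and Mgll every day 6 library was above every day 3 library, with the smallest p the exact permutation test allows (p = 0.005). The adjusted p of this exact permutation test was 0.057 for these 7 genes, so none passed, and of all tested genes 0% passed in either direction, although 3018 were higher and 893 lower at an unadjusted p under 0.05. Without WT day 3 replicate 3 the 7 genes passed (exact permutation test, adjusted p = 0.0436). How many of all tested genes passed in this setting was not counted, so the 7 have no background beside them. Between day 0 and day 3, Adrb1 (by 0.860 kb), Adrb3 (by 0.376 kb) and Prkar2b were lower and Abhd5 higher past the threshold. Of all tested genes 29.6% were lower and 1.58% higher. Of the 4 calls 0 held without WT day 3 replicate 3, while Adrb1 and Abhd5 kept theirs without DKO day 0 replicate 2. The Adrb3 step turned to 0.228 kb higher at day 3 on scaled kb.

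The genotype values of the 9 genes at each day are set beside those of all genes as a description, with no test between them. At day 6, of all tested genes, 61.1% had every DKO library below every WT library and 0.0642% above, and the median gene had 0.654 times the WT cover in DKO. Of the 9, Lipe and Abhd5 had DKO wholly below, none had it above, and the median ratio was 0.959. At day 3, 10.6% of all genes were wholly lower and 0.770% wholly higher in DKO, and 0 of the 9 were either. At day 0, 19.2% were wholly higher and 0.719% lower, and Pnpla2, Lipe and Adrb1 were the 3 of the 9 that were higher. The median DKO to WT ratio of the 9 was 1.61 at day 0, 0.803 at day 3 and 1.44 at day 9, against 1.29, 0.849 and 1.15 for all genes. Without the wide-peaked DKO day 0 replicate 2 the day 0 ratios were 1.06 for the 9 and 1.05 for all genes, and Pnpla2, Lipe and Adrb1 were still wholly higher in DKO.

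Scaling to the covered length of each library changed the genotype result. With kb divided by the covered Mb of the library and multiplied by the mean over libraries, 8 of the 9 genes had every DKO library above every WT library at day 6, all but Adrb1, while 5873 of 15586 genes were wholly higher and 2279 wholly lower. The median of the 9 was then 1.87 times WT, against 1.23 for all genes. At day 9, 5 of the 9 (Adrb1, Adrb3, Prkar2b, Pde3b and Mgll) stayed wholly above WT, the Lipe difference turned to -0.147 kb, and 2147 of all genes were wholly higher and 2106 wholly lower. Over the 4 days, Pnpla2 (2.97 kb, adjusted p = 0.00469), Prkar2b (3.09 kb, adjusted p = 0.00767), Adrb3 (1.56 kb, adjusted p = 0.0232) and Pde3b (1.70 kb, adjusted p = 0.0304) were higher in DKO past the threshold by the same exact permutation test. On this scale 1571 of all genes were higher and 966 lower, and the median difference over all genes moved from -0.00821 to 0.113 kb. Whether the total cover of a library belongs to the cells or to the library cannot be told apart in these lists.

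**Figure D2:**
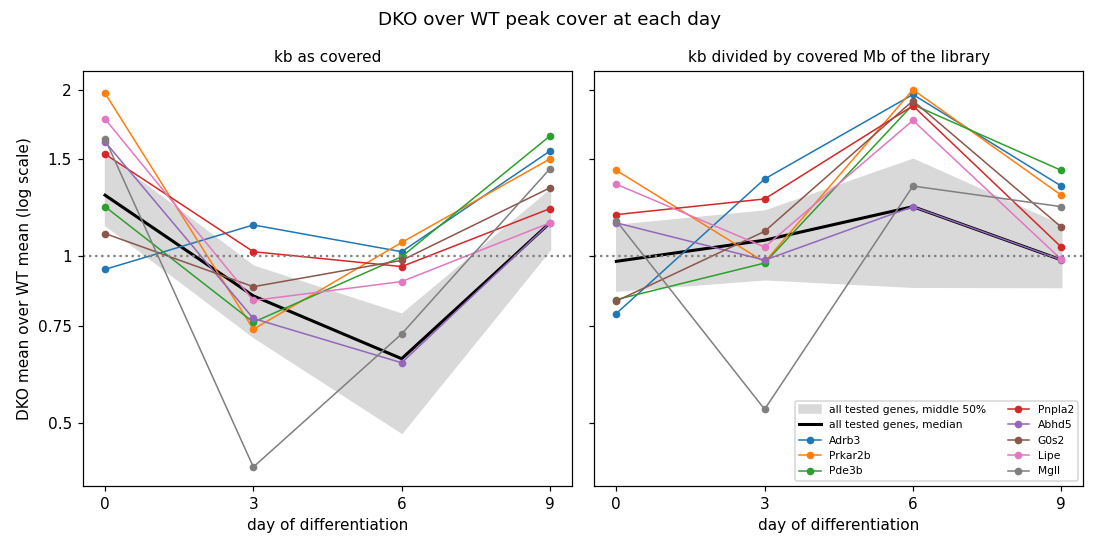
The ratio of DKO to WT mean cover (y axis, log scale) is plotted against the day (x axis) for 8 genes, Adrb1 being left out because its cover is near 0, with kb as covered on the left and kb divided by the covered Mb of the library on the right. The black line is the median of all tested genes and the grey band their middle 50%. At day 6 the median gene falls to 0.654 on the left while the members except Abhd5 and Mgll stay near 1, and on the right the same 6 genes stand above the grey band.

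Peak height gave a second view. For each gene the highest fold of a peak within 1 kb of any of its transcript starts was taken. The fold is that given by the peak caller, the reads at a peak summit over the local background, each with 1 added. Summit reads and local backgrounds are not in the lists and were worked out from the fold and p of each peak. The highest fold at a start was added as a measure after the kb values were seen. It rose from day 0 to day 9 for 8 of the 9 genes past the threshold (exact permutation test, adjusted p = 0.024 for 7 of them and 0.0468 for Pnpla2), against 26.5% of genes higher and 5.53% lower. At the Prkar2b start the WT libraries went from folds of 9.89, 11.1 and 9.17 on day 0 to 20.9, 24.7 and 19.9 on day 9. The DKO libraries went from 13.5, 12.1 and 15.3 to 34.4, 34.3 and 32.3. At the G0s2 start they were 20.9, 20 and 17.6 in WT and 28.9, 28.0 and 24.8 in DKO at day 9. These starts and those of Pnpla2 and Pde3b had every DKO library above every WT library at day 9, 4 of 9 genes against 21.2% of all genes.

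At the Abhd5 start the fold went the other way. There were folds of 18.6, 20.6 and 20.7 in WT and 17.3, 14.5 and 14.8 in DKO at day 9, wholly lower in DKO, as in 7.02% of all genes. The reads at these summits were 52, 62 and 64 in WT and 83, 77 and 77 in DKO, so the reads were higher in DKO, and the local background was 1.85 to 2.13 in WT and 3.86 to 4.36 in DKO. At day 6, 44.2% of genes were wholly lower and 0.688% wholly higher in DKO, and Mgll was the 1 of the 9 that was lower, with 14.7 ± 1.01 against 10.4 ± 1.46 (SD, n = 3 each). The Mgll summits held 40 to 46 reads in both genotypes, over a local background of 1.82 to 2.02 in WT and 2.42 to 3.91 in DKO. Adrb3 had no peak within 1 kb of a start in any WT library at days 0 and 3, and 10.2 ± 2.26 in WT and 11 ± 0.896 in DKO (SD, n = 3 each) at day 9. For Adrb1 the fold was 4.80 ± 0.519 in WT and 5.18 ± 0.938 in DKO at day 0, and at day 9 it was 4.60 in the 1 WT library with a peak and 9.83, 7.43 and 4.08 in DKO.

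**Figure D3:**
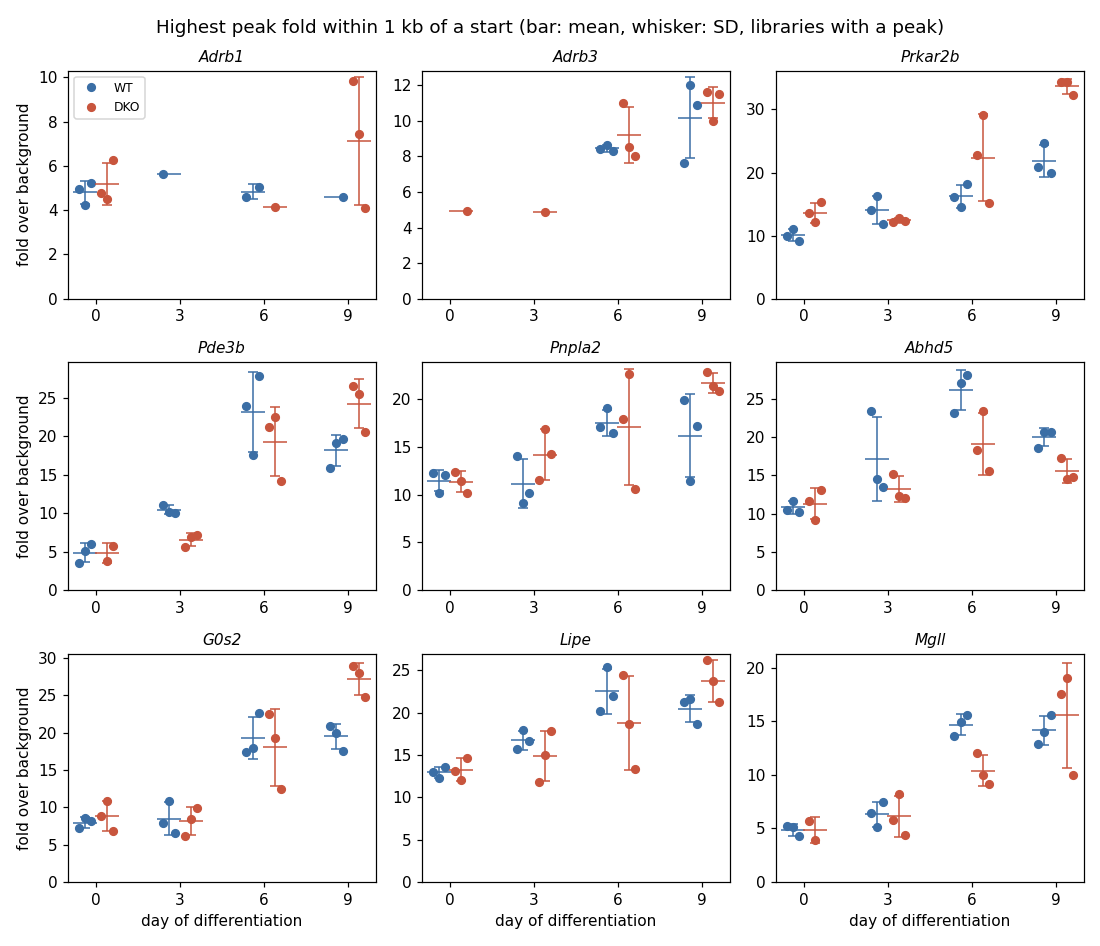
Each panel plots the highest fold over background of a peak within 1 kb of a transcript start (y axis, from 0) against the day (x axis) for the libraries that had such a peak, WT in blue and DKO in red, with the mean as a bar and the SD as whiskers. Prkar2b rises from 10.1 to 21.8 in WT and from 13.6 to 33.7 in DKO between day 0 and day 9, and Abhd5 is the panel where WT ends higher.

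The rank of the strongest peak in each window, as a percentile by q within its own library, rose from day 0 to day 9 past the threshold for 6 of the 9 genes (Lipe, Mgll, Abhd5, G0s2, Pde3b and Prkar2b, exact permutation test, adjusted p = 0.0278 each), against 14.0% of genes higher and 8.82% lower. Mgll moved from 72.4 to 92.8 and G0s2 from 80.1 to 97.5. The windows of Pnpla2 (99.6 and 99.4) and Adrb3 (97.9 and 99.0), which hold the Rplp2 and Eif4ebp1 starts, ranked high at both days. With 5 kb upstream, which leaves out the Rplp2 start, Pnpla2 rose by 8.46 (exact permutation test, adjusted p = 0.0285). By genotype over the 4 days 0 of the 9 genes passed on this measure, against 3.52% lower and 0.173% higher in DKO, with adjusted p from 0.273 for Prkar2b to 0.94 for Pnpla2 (exact permutation test).

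Of the 155 regions in the windows, 30 were gained, that is called in at least 5 of 6 libraries at day 9 and at most 1 of 6 at day 0. This was 19.4% of them, against 5.40% of all 169346 regions. Mgll held 9, Abhd5 and Adrb3 6 each, G0s2 4, Pde3b and Prkar2b 2 each and Lipe 1. Pnpla2 and Adrb1 held none, the 3 Pnpla2 regions being called in 24 of 24 libraries. Most of the gained regions, 22, lay inside the gene over 1 kb from a start, 4 within 1 kb of a start, 3 upstream and 1 past the gene end. In time, 16 were in no library of day 3 and 18 were in all 6 libraries of day 6. The shares of all gained regions that did the same were not counted.

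At day 9, whose calls chose these regions, all 30 were called in 3 of 3 DKO libraries, and 18 of them in 3 of 3 WT libraries. Of the 9152 regions gained in the whole genome the shares were 90.4% in DKO and 71.6% in WT. At day 6, 25 of the 30 (83.3%) were called in all WT libraries and 19 (63.3%) in all DKO libraries, against 59.9% and 27.8% of the 9152. Regions called in 3 of 3 libraries of a genotype and 0 of 3 of the other on the same day numbered 4 of 155. In DKO they were an upstream region of Abhd5 at day 0 (122348982 to 122350010) and, at day 9, regions inside Mgll (88812090 to 88812403) and Pde3b (114421567 to 114422635). In WT it was a region inside Abhd5 at day 6 (122374046 to 122374618). As a share of regions the day 9 DKO count was 1.29%, against 1.46% of all regions, and the day 6 WT count was 0.645% against 4.55%.

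**Figure D4:**
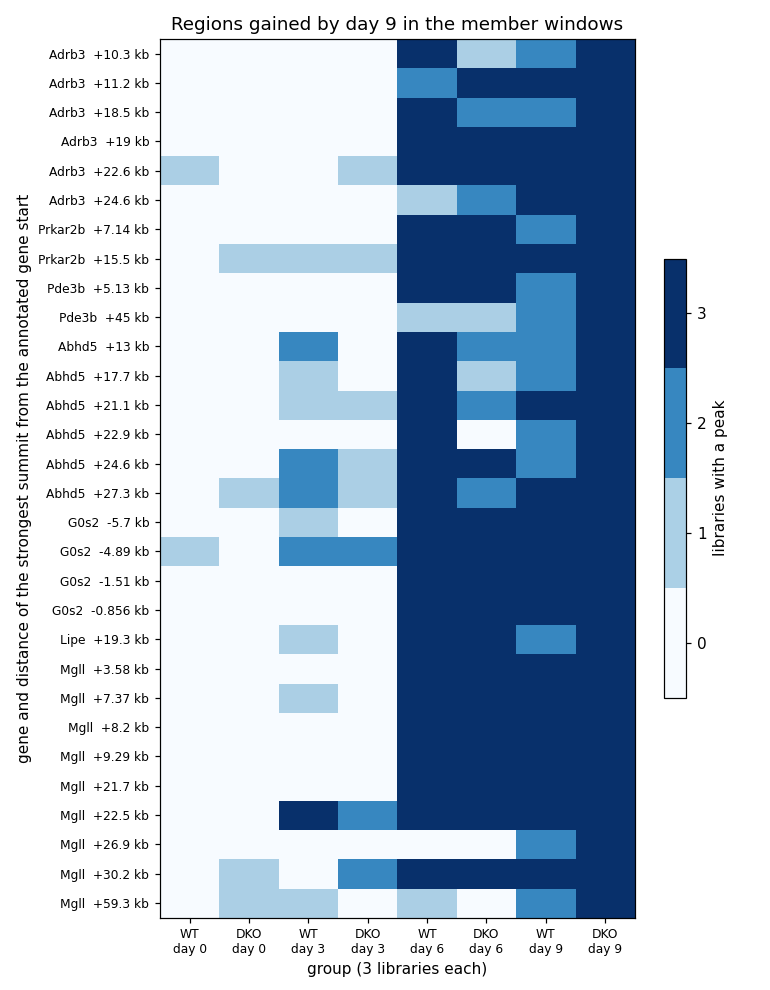
Rows are the 30 regions gained by day 9, named by gene and by the distance in kb of the strongest summit from the annotated gene start (minus is upstream), columns are the 8 groups, and the shade gives how many of 3 libraries had a peak. The 4 columns of days 0 and 3 are mostly empty, 18 rows are full in both day 6 columns, and the last column, DKO at day 9, is full in all 30 rows.

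Other genes of the pathway were read from fixed lists. Their counts for day 9 against day 0 stand beside the shares of all tested genes, 16.8% higher and 15.3% lower. In the list of droplet proteins and genes that use the products of lipolysis, 10 of 10 rose from day 0 to day 9, with a median of 3.75 kb. Plin1, which encodes the coat protein that guards the droplet, rose by 15.5 kb, Acsl1, which encodes a fatty acyl-CoA synthetase, by 13.4 kb and Cidec, a droplet fusion gene, by 9.99 kb (exact permutation test, adjusted p = 0.0197 each). At day 9 all 10 had DKO wholly above WT, against 30.3% of all genes, and at day 6 1 had it wholly below, against 61.1%. The 9 phosphodiesterase genes other than Pde3b split, with 4 higher at day 9, led by Pde4d (13.7 kb) and Pde3a (10.6 kb), and 3 lower, led by Pde8a, which fell by 5.65 kb. At day 6, 8 of these 9 had DKO wholly below WT, against 61.1% of all genes.

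Among receptors and G proteins 6 of 10 rose and 1 fell past the threshold, against 16.8% and 15.3% of all tested genes. These shares also apply to the counts of the lists that follow. The insulin receptor gene Insr rose by 15.3 kb, the thyrotropin receptor gene Tshr by 6.01 kb and Adora1, which encodes the adenosine receptor that restrains lipolysis, by 5.49 kb (exact permutation test, adjusted p = 0.0197 each). Of the 8 adenylyl cyclase genes tested, Adcy5 rose by 12.5 kb, Adcy7 fell by 12.2 kb and Adcy1 fell by 0.811 kb, and Adcy8 had no peak. Protein kinase A subunits and anchors gave 2 of 8 up, Prkaca, the catalytic subunit gene (2.96 kb), and Akap1, an anchor gene (2.27 kb), and 2 down, of which Prkacb fell by 2.15 kb. In the cAMP response list 4 of 11 rose and 1 fell, with Sik2, a salt-inducible kinase gene, at 9.41 kb, Akt2, a kinase gene of insulin signalling, at 7.95 kb, and Irs2, an insulin receptor substrate gene, at 7.03 kb. None of the 56 genes tested in these 6 lists passed the genotype test over the 4 days. The medians for day 9 minus day 0 were 1.85 kb for receptors, -0.314 kb for cyclases, 0.401 kb for kinase genes, 2.11 kb for phosphodiesterases and 0.654 kb for the response list, against 0.0365 kb over all genes.

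Marker genes were read for the same contrast of day 9 against day 0, in which 16.8% of all tested genes passed as higher and 15.3% as lower. The 6 adipocyte markers, with Fabp4, Plin1 and Cidec shared with the droplet list, all rose from day 0 to day 9, and their summed cover went from 9.32 to 27.3 kb over the day 0 libraries to 57.1 to 95.4 kb over those of day 9. Of 6 preadipocyte markers 1 rose, Cd34, which is near the share of all tested genes, and none fell. Their sums were 15.8 to 31.9 kb at day 0 and 19.4 to 25.8 kb at day 9. Immune markers held 20.7 to 49.0 kb at day 0 and 7.99 to 11.8 kb at day 9, and 3 of 4 fell, including Ptprc, from 3.51 kb in WT and 8.21 kb in DKO to 0.113 and 0 kb. Endothelial markers held 5.38 to 15.2 kb and 1.86 to 4.89 kb, and 2 of 3 fell, with Cdh5 at 0 kb in all libraries of day 9. Of the brown or beige markers Ppargc1a and Prdm16 rose, Cidea did not pass, and Ucp1 had a peak in 1 of 24 libraries. The muscle markers Myod1 and Myog had none, and Acta1 had a peak in 7 libraries. In a bulk culture more acetylation per cell and more cells of a type cannot be told apart, and the part of these cell types in the day contrast was not tested.

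At day 9 the adipocyte markers moved with the genotype contrast as well, with DKO wholly above WT for 5 of 6, against 30.3% of all genes, while Dpp4 and Pi16 of the preadipocyte list were wholly below it. Of the immune markers Adgre1 and Csf1r, and of the endothelial markers Pecam1 and Kdr, were wholly above it too. At day 6, Pparg, the gene of the nuclear receptor that rosiglitazone activates, and Lpl, lipoprotein lipase, were the 2 adipocyte markers with DKO wholly below WT, and 5 of the 6 preadipocyte markers were too, against 61.1% of all genes.

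The 9 genes were ordered by how alike their cover was over the 24 libraries, as a description, since the libraries share days, genotypes and total cover. Pnpla2 and Lipe had the highest Pearson r between members, 0.989, and Adrb1 stood apart, with r down to -0.332 against Abhd5. Of all other tested genes on another chromosome or over 1 Mb away, Fabp4, which encodes a fatty acid carrier, was the most like both Pnpla2 (r = 0.992) and Lipe (r = 0.991), followed for Pnpla2 by Wdr93 (r = 0.992). G0s2 was closest to Jagn1 (0.994) and Agpat2 (0.992), Pde3b to Cdo1 (0.990) and Mtus1 (0.986), and Mgll to Ptpa (0.989). Adrb3 was closest to Chpt1 (0.982) and Thrsp (0.980), Abhd5 to Nfia (0.982) and Scara5 (0.975), and Prkar2b to Rreb1 (0.963) and Atl2 (0.962). For Adrb1, with few peaks, the nearest were Nxph3 (0.951) and Helb (0.92).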

How the data were processed

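The 24 H3K27ac peak lists are the authors' MACS2 2.1.1.20160309 calls on mm10, 1 list per library and none pooled, after bcl2fastq 2.17, cutadapt 1.18 and BWA alignment of 75 bp single-end reads, per the labels and the study's methods. As deposited, each peak carries its fold enrichment at the summit (a ratio to the local background) and -log10 p and q values. The control input behind each list is not given in the sources used here, and the 16 input libraries were not analysed here.

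From these lists the kb under peaks was computed for the mm10 GENCODE M21 span of each protein-coding gene with 10 kb upstream, and genes with a peak in at least 3 libraries were tested. The rank of a peak is its percentile by q in its own library. Exact two-sided permutation tests relabelled genotype within day (160000 relabellings over 4 days, 20 within a day, smallest p 0.1) or day within genotype (400), with Benjamini-Hochberg adjustment over 15586 genes and a threshold of 0.05. Python 3.11.15, numpy 2.4.6, pandas 2.3.3, numba 0.67.0 and pysam 0.24.0 were used, and the scripts were tested on simulated data. Alternatives were stricter or fewer peaks, summits only, other windows and filters, scaling and left-out libraries. The highest fold at a start, scaling without DKO day 0 replicate 2 and leaving out DKO day 6 replicate 3 were added after the data were seen. The 9 genes and all lists were chosen with earlier results of these data known. All 9 were named, together with up to 3 genes per list that had the largest change from day 0 to day 9 past the threshold, and the 2 most alike genes of each, except for items that are not reported here. Other names were chosen after their values were seen. Peak lists hold no library totals, so depth was read only from the background at summits, and wider or shallower libraries limit what a peak length can show. Sequences are RefSeq GRCm38.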

Additional observations from a re-analysis of the deposited data

Results flagged for a closer look

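For Lipe and Mgll the genotype difference in cover changed with the day past the threshold. For Lipe (adjusted p = 0.0322, exact permutation test over all tested genes) the DKO minus WT difference was 2.36, -1.08, -1.43 and 2.05 kb along the 4 days. For Mgll (adjusted p = 0.0308, exact permutation test) it was 3.11, -3.19, -5.32 and 9.18 kb in the same order. Without the wide-peaked DKO day 0 replicate 2 the day 0 difference was 0.138 kb for Mgll (adjusted p = 0.0328, exact permutation test) and 1.56 kb for Lipe (adjusted p = 0.047, exact permutation test). The total cover of the libraries changed in the same order of signs, DKO being above WT at days 0 and 9 and below it at days 3 and 6, and its part in these differences was not tested beyond the scaled values. Groups of 3 libraries were too small to look for single outlying samples.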

How the results depend on the processing

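The rise of 8 genes and the fall of Adrb1 from day 0 to day 9 kept their direction under the alternatives, except that Adrb1 turned to 0.317 kb with 25 kb upstream. With 250 bp either side of summits 5 of the 9 and 2469 of all genes passed, and with the top 20000 peaks 1389 genes passed. Same-numbered libraries deviated together in 4 of 12 pairs (correlations -0.830 to 0.894), so the numbers were not taken to pair samples. With the replicate block, 0 genes and 0 members passed for kb or for percentile, by genotype or by day 9 against day 0 (for the latter the smallest p is 0.0312). Without a replicate number, day contrasts of 2 against 2 cannot pass (smallest p 0.0556), and they give no count.

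By genotype over 4 days, main counts of 20 genes and 0 members became 8 genes at a -log10 q of at least 5, 13 with the top 20000 peaks, 181 at summits, 497 for the fold at a start, 204 without DKO day 0 replicate 2, 39 without WT day 3 replicate 3 and 49 without DKO day 6 replicate 3. Scaling gave 2537 genes and 4 members, and 2976 and 6 when DKO day 0 replicate 2 was also left out. Leaving out a replicate number gave 0 genes for kb and for percentile, the latter count being 669 when only WT day 3 replicate 3 was left out. For the change with the day, members passing became 1 at -log10 q of at least 5, and both counts became 0 with the top 20000 peaks, at summits and without any replicate number. Scaling gave 13 genes and 0 members, and leaving out DKO day 0 replicate 2 or WT day 3 replicate 3 gave 1758 or 5383 genes.

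Within days, the top 20000 peaks gave 1 member wholly lower at day 3, against 1322 of 12474 genes. At day 6 they gave 0 members lower and 2 higher, against 4594 and 173 genes, with Lipe at 0.460 and Mgll at 2.27 kb. At day 9, 2499 genes were higher. A -log10 q of at least 5 gave 1 member lower at day 3, against 1495 of 15280 genes. At summits 1 member was higher at day 0, against 249 of 15593 genes, with Lipe at -0.210 kb, and 3879 genes were lower at day 6. At day 9, 2 members were lower and 2 higher, against 452 and 1757 genes (Pnpla2 -4.37, Lipe -0.0107, G0s2 -0.339 kb). With the nearest start only, 1 member was lower at day 9 (Pnpla2 -1.34 kb), against 349 of 14768 genes. Both the summit and the nearest start settings depend on how peaks are split. The Pnpla2 window held a mean of 15.0 peaks in WT and 5.33 in DKO at day 9. Scaling gave 1 member lower at day 0 (G0s2 -0.200 kb), against 1692 of 15586 genes. At day 3 it gave 1 lower and 1 higher, against 1219 and 1940 genes. At day 6 it gave 0 lower and 8 higher, against 2279 and 5873 genes, and at day 9 5 higher, against 2147 genes. The scaled day 6 differences were 9.33 kb for Pnpla2, 9.67 for Lipe, 5.88 for Mgll, 2.84 for Abhd5, 4.50 for G0s2 and 5.06 for Pde3b, and Lipe was -0.147 kb at day 9. The fold at a start gave 1 member higher at day 0, against 1566 of 13513 genes, with Pnpla2 at -0.101. It gave 1 lower at day 3 and 1 lower at day 6, against 3194 and 5970 genes. At day 9 it gave 1 lower (Abhd5 -4.43) and 4 higher, against 948 and 2870 genes. Leaving out a replicate number gave 0 to 1 members lower and 3 to 5 higher at day 0 (G0s2 -0.145 to 0.303 kb). Over all genes these counts were 225 to 1776 and 4518 to 7427. At day 3 it gave 0 to 5 members lower and 0 to 1 higher, against 1974 to 8589 and 254 to 852 genes. At day 6 it gave 2 to 4 lower and 0 to 4 higher, against 9983 to 11881 and 29 to 584 genes (Pnpla2 -0.953 to 0.235, G0s2 -0.635 to 0.548, Pde3b -0.625 to 1.07 kb). At day 9, 5358 to 8058 genes were higher, against 4727 with all libraries. Without WT day 3 replicate 3, 5 members were lower at day 3, against 8211 of 15586 genes. Without DKO day 6 replicate 3, 2 members were higher at day 6 (Pde3b 0.899 kb), against 324 of 15586 genes.

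From day 0 to day 3, 4 members passed, which became 2 at -log10 q of at least 5, 0 with the top 20000 peaks, 0 at summits, 1 with 5 kb upstream, 7 scaled (Adrb3 0.228 kb), 2 without DKO day 0 replicate 2 and 0 without WT day 3 replicate 3. From day 3 to day 6, 8 passed when scaled and 7 without WT day 3 replicate 3. From day 6 to day 9, 0 passed with stricter, fewer or summit peaks or 5 kb upstream, and 4 when scaled (Abhd5 -3.78, Pde3b -2.83 kb). For these steps all tested genes were not counted under the alternatives, so the member counts have no background beside them. The Pnpla2 percentile turned to 8.46 with 5 kb upstream. The cause of these changes was not tested.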
